A study of Mus musculus with 19 samples.

Results

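Nephron progenitors of mouse kidneys at E16.5 (embryonic day) were sorted with an antibody or with a GFP reporter, and the enrichment that each sort gave was compared gene by gene. The comparison rests on 12 of the series' 19 libraries, in 6 pairs of a positive and a negative fraction. In the antibody sort, cells of the nephrogenic zone (NZC), the outer layer of the kidney in which new nephrons arise, were separated by staining for the transcription factor SIX2 into SIX2+ and SIX2- cells (n = 3 pairs, titled mMARIS, no allele given). In the reporter sort, cells of kidneys with the allele Six2TGC/+, which places GFP under Six2 control, were separated into GFP+ and GFP- cells (n = 3 pairs). All animals were of the CFW strain. The labels give the NZC as the source of the antibody fractions and developing kidneys as the source of the GFP fractions. Antibody or reporter, allele and starting tissue therefore change together between the sorts and cannot be told apart. MARIS is a method for RNA from cells that were fixed and stained inside. The labels name a kit for fixed material and a kit for fresh cells without saying which library had which. Nor do they state whether the libraries of a group are from different animals. The p-values hence reflect the scatter of these libraries alone, and that scatter may be technical.

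In the growing kidney, SIX2-expressing progenitors form a cap around each tip of the ureteric bud and renew themselves there. Wnt signals from the bud induce some of them to leave the cap, switch on Wnt4 and Pax8 and condense into a renal vesicle, which is patterned by Notch signalling into the segments of a nephron. GFP is a stable protein and can outlast the transcription of the gene that drives it, whereas an antibody reads the SIX2 protein present at the time of the sort. Between and below the caps lies stroma, made by Foxd1-expressing precursors, with Meis1 as a broad stromal transcription factor and Mylk, a myosin light chain kinase, in its smooth muscle.

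For each gene the antibody difference is log2(RPKM + 1) in SIX2+ minus SIX2- of the same replicate number, and the GFP difference is GFP+ minus GFP-. RPKM is the number of reads per kilobase of a gene and per unit of library depth. The enrichment difference is the mean of the 3 antibody differences minus the mean of the 3 GFP differences. It is positive where the antibody sort placed a gene more on its positive side than the GFP sort did, and negative where the GFP sort did so. A gene was called at an adjusted p under 0.05 from limma's moderated test across all 12615 genes tested.

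The labels could be checked with Six2 itself, at chromosome 17:85684277-85688274 on the minus strand of mm10. Six2 was at 301, 295 and 458 RPKM in SIX2+ libraries 1, 2 and 3 and at 4.43, 7.59 and 46.8 in the SIX2- libraries. It was at 312, 348 and 346 RPKM in GFP+ and at 2.70, 2.88 and 16.8 in GFP-. Every positive library was far above every negative one, and both negative libraries numbered 3 held more Six2 than the others of their group, 10.2% and 4.85% of the level in their positive partners against 0.828% to 2.58% in the other pairs. The enrichment difference of Six2 was −1.01 ± 0.72 (SE, log2 scale, adjusted p = 0.490). It was called only with replicates 1 and 2 alone (−0.996, adjusted p = 0.0300). Estimated depth was about 26152000 to 45973000 reads per library. Rn45s, a ribosomal RNA gene, lay between 2.12 and 7.07 RPKM in 10 libraries but at 14.9 and 32.5 in GFP+ and GFP- number 3. The nuclear RNA Malat1 was highest in the same pair, at 134 and 86.1 RPKM. Counts with replicates 1 and 2 alone therefore stand beside the counts of the gene lists below.

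The sorts gave much the same ordering of genes. The mean antibody difference and the mean GFP difference correlated with Pearson r = 0.916 across the 12615 genes, which are not independent replicates. Between pairs of the same sort r was 0.914 to 0.947 (antibody) and 0.900 to 0.959 (GFP), and between pairs of different sorts 0.821 to 0.924. The median SD of a gene over its 3 pair differences was 0.141 for the antibody sort and 0.184 for the GFP sort. Against this spread 381 genes (3.02% of those tested) had an enrichment difference that passed the test, 153 with the antibody difference higher (1.21%) and 228 with the GFP difference higher (1.81%). The difference was at least 1 in size for 68 and 142 of them. In 24.6% of all genes the 3 antibody and 3 GFP differences did not overlap, and the called genes were among these. An unadjusted p under 0.05 was reached by 883 genes (7.0%) with the antibody difference higher and 1443 (11.4%) with the GFP difference higher, and 7508 genes (59.5%) had an enrichment difference below 0. The median enrichment difference of all genes was −0.06. The antibody-higher share of called genes was 40.2%, and it became 50.6% with median-of-ratios scaling and 51.5% with quantile normalisation of the columns. Replicates 1 and 2 alone gave 300 and 548 called genes of 12615, and weighting the libraries 699 and 1067. List counts below under these 2 settings are to be set against these totals, and those of the main fit against 1.21% and 1.81%. Fits that each left out 1 pair gave from 42 and 51 (without antibody pair 2) to 192 and 269 (without GFP pair 3).

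**Figure D1:**
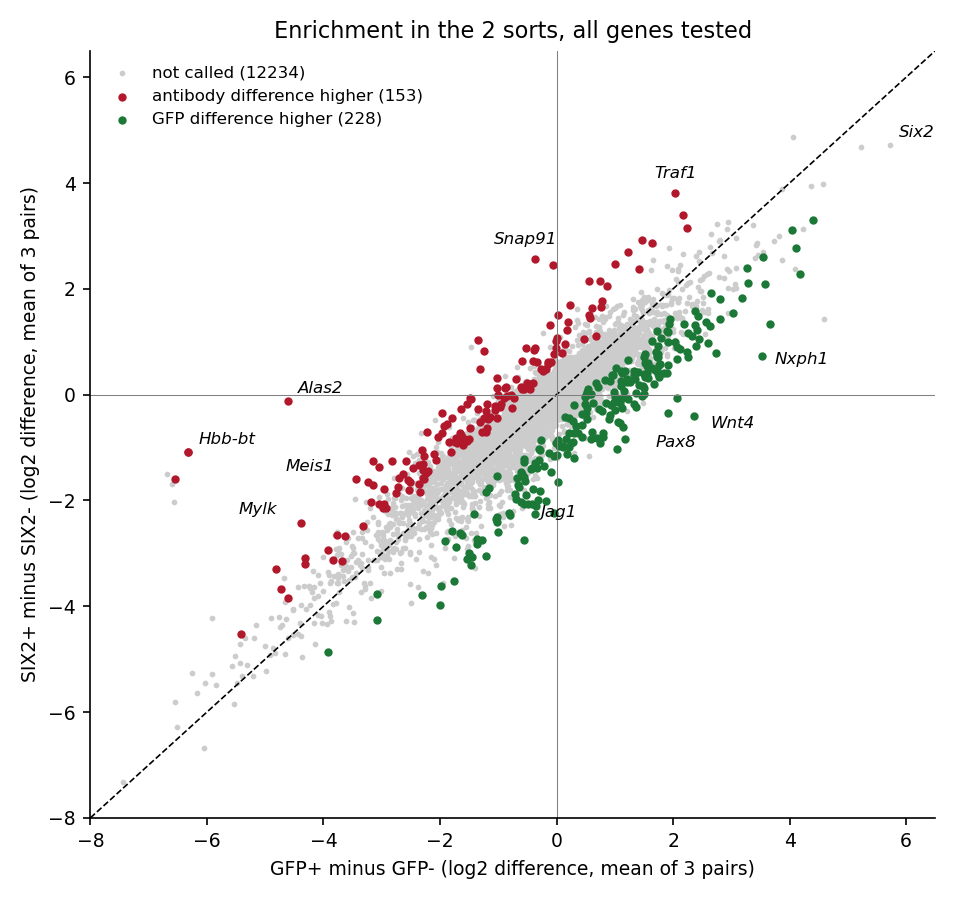
Mean antibody difference (y axis) against mean GFP difference (x axis) of each gene, in log2(RPKM + 1), for 12615 genes, with called genes in colour and the diagonal marking equal differences. Most genes lie along the diagonal (r = 0.916), with Wnt4 and Pax8 below it and Meis1 and Mylk above it.

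Few called genes had opposite signs in the sorts by a margin of 0.5 in each. Of the 228 genes with a higher GFP difference, 59 (25.9%) were at least 0.5 above 0 in both sorts, 45 (19.7%) were at least 0.5 below 0 in both, and 113 (49.6%) were within 0.5 of 0 in at least 1 sort. In 11 (4.82%) the antibody difference was at or below −0.5 and the GFP difference at or above 0.5. Of the 153 genes with a higher antibody difference, 71 (46.4%) were below 0 by that margin in both sorts and 17 (11.1%) above it in both. Another 61 (39.9%) were near 0 in at least 1 sort, and 4 (2.61%) were antibody-positive and GFP-negative. Among all genes tested 1147 (9.09%) were above the margin in both sorts and 1990 (15.8%) below it. Since the rule for a call uses these values, the shares are a description.

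Genes of nephron induction and of the renal vesicle held more called genes than any other list examined. Of 26 tested members, 15 were called with a higher GFP difference and 0 with a higher antibody difference, where 1.81% and 1.21% of all genes were called. The median enrichment difference of the list was −1.42, against −0.06 for all genes, and 25 of 26 members were below 0, as were 59.5% of all genes. An unadjusted p under 0.05 was reached by 24 members with a higher GFP difference and by 0 with a higher antibody difference, where 11.4% and 7.0% of all genes reached it. The median over the members was −1.91 for the antibody difference and −0.55 for the GFP difference. In the 18 alternative settings the median stayed between −1.54 and −0.94 and the number called between 1 (with no filter on low values) and 21 (with library weights, and with replicates 1 and 2 alone). Without GFP pair 1 it was 6, without antibody pair 2 it was 7, without GFP pair 2 it was 9, and without the replicate block it was 9.

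Wnt4, the secreted signal that drives the mesenchymal to epithelial transition, is at chromosome 4:137277489-137299726 on the plus strand. Wnt4 was at 40.4, 38.4 and 16.8 RPKM in SIX2+ and at 28.6, 53.9 and 40.3 in SIX2-. In GFP+ it was at 65.3, 62.0 and 59.1 RPKM and in GFP- at 12.4, 13.8 and 8.45. The SIX2+ and SIX2- libraries overlapped, with SIX2+ above SIX2- in pair 1 and below it in pairs 2 and 3, whereas every GFP+ library was above every GFP- library. The antibody differences of Wnt4 were 0.48, −0.48 and −1.21 and the GFP differences 2.30, 2.09 and 2.67. The antibody difference was not called (−0.40 ± 0.26, adjusted p = 0.233), and Wnt4 was higher in GFP+ than in GFP- (2.35, adjusted p = 9.23e-05). The enrichment difference of Wnt4 was −2.76 ± 0.37 (adjusted p = 0.00968). The call was lost in 1 of the 18 alternatives, with no filter on low values (adjusted p = 0.0731). On the log2(RPKM + 1) scale the gap of Wnt4 was −1.04 for SIX2+ minus GFP+ and 1.72 for SIX2- minus GFP-.

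Pax8, a transcription factor of the induced nephron at chromosome 2:24420560-24475599 on the minus strand, was at 34.0, 41.1 and 38.9 RPKM in SIX2+ and at 35.4, 65.6 and 49.5 in SIX2-. It was at 51.7, 52.8 and 55.1 RPKM in GFP+ and at 12, 15.2 and 13.1 in GFP-. In each antibody pair the SIX2- library was the higher, by little in pair 1, and in each GFP pair the GFP+ library was the higher. The antibody differences of Pax8 were −0.05, −0.66 and −0.34 (adjusted p = 0.0319) and the GFP differences 2.02, 1.73 and 1.99 (adjusted p = 2.41e-06). Its enrichment difference of −2.27 ± 0.16 (adjusted p = 0.00260) was called in all 18 alternatives.

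**Figure D2:**
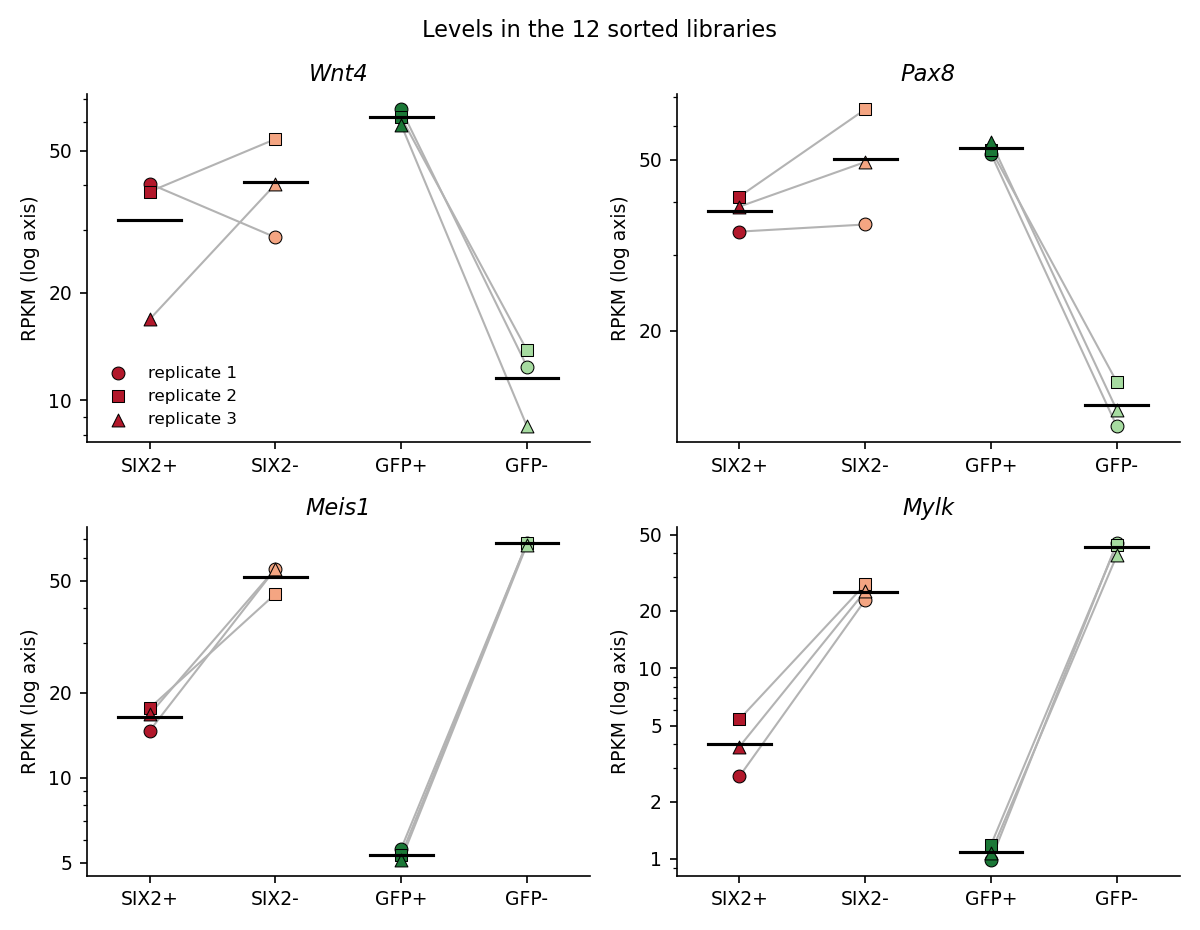
RPKM (log y axis, own range per panel) of Wnt4, Pax8, Meis1 and Mylk in each of the 12 libraries, by fraction (x axis), with a symbol per replicate number, grey lines joining the libraries of a pair and black bars at the group means (n = 3). For Wnt4 and Pax8 the lines fall from GFP+ to GFP- in every pair and rise from SIX2+ to SIX2- in every pair but pair 1 of Wnt4. For Meis1 and Mylk the positive fraction is the lower one in every pair of both sorts.

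Cadherins of the early nephron came next by size of difference. Cdh4 was at 13.9, 14.51 and 13.3 RPKM in SIX2+, at 5.38, 10.3 and 7.79 in SIX2-, at 35.8, 24.6 and 36.1 in GFP+ and at 4.50, 3.93 and 3.36 in GFP-. It was higher on the positive side of both sorts, by 0.79 in the antibody sort and 2.74 in the GFP sort, an enrichment difference of −1.94 ± 0.23 (adjusted p = 0.00690). Cdh6 was at 2.66, 3.51 and 1.29 RPKM in SIX2+ and at 14.52, 18.2 and 7.43 in SIX2-, at 9.04, 6.30 and 6.90 in GFP+ and at 8.44, 10.8 and 6.63 in GFP-. The SIX2- libraries of Cdh6 were all above the SIX2+ libraries while the GFP fractions overlapped, and its enrichment difference was −1.84 ± 0.21 (adjusted p = 0.00622; 0.0665 without the replicate block). Bmp2, a signalling ligand, lay at −0.92 in the antibody sort and at 0.75 in the GFP sort, with an enrichment difference of −1.68 ± 0.33 (adjusted p = 0.0369). The Bmp2 call was lost without antibody pair 2 (adjusted p = 0.124) and without GFP pairs 1, 2 or 3 (0.115, 0.0559 and 0.0650).

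Among the other called members, 6 more are given that are outside the rule for naming genes and were chosen after their values were seen. Emx2, a homeobox gene, had an enrichment difference of −1.75 (adjusted p = 0.0212). Greb1 had −1.75 (adjusted p = 0.0149) and Osr2, a zinc finger gene, −1.65 (adjusted p = 0.00953). Lhx1, a transcription factor needed for the renal vesicle, had −1.64 (adjusted p = 0.0276), with group means of 2.98 RPKM in SIX2+, 15.9 in SIX2-, 4.28 in GFP+ and 6.25 in GFP-. Pou3f3, a POU factor of the distal nephron, had −1.45 (adjusted p = 0.0273) and Irx3, an Iroquois factor of the middle segments, −1.38 (adjusted p = 0.0267). All of these but Greb1 were lower in the positive than in the negative fraction of both sorts on average, and more so in the antibody sort. Greb1 stood at −0.61 in the antibody sort and at 1.14 in the GFP sort. Fgf8, a growth factor of the renal vesicle, was the 1 member above 0, at 0.22, and was not called.

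Notch genes, which pattern the renal vesicle, were called in 1 direction as well. Of 18 members of the Notch list, 5 were called with a higher GFP difference and 0 with a higher antibody difference (9 and 0 at an unadjusted p under 0.05), with a list median of −0.56. Over all genes the shares were 1.81% and 1.21% (11.4% and 7.0% unadjusted). Jag1 and Heyl also stand in the induced list. The number called was between 0 and 9 in the alternatives, 2 without GFP pair 1, 3 without antibody pair 2, 1 without the replicate block, 9 with library weights and 7 with replicates 1 and 2 alone. Jag1, a Notch ligand, was at 5.37, 9.43 and 3.13 RPKM in SIX2+ and 23.8, 38.4 and 20.1 in SIX2-, against 8.90, 9.04 and 8.65 in GFP+ and 11.9, 17.2 and 10.2 in GFP-. The negative fraction of Jag1 was the higher one in all 6 pairs, with mean differences of −2.08 in the antibody sort and −0.49 in the GFP sort, an enrichment difference of −1.59 ± 0.19 (adjusted p = 0.00659; 0.120 without the replicate block). Target genes of Notch differed in direction. Hey1, a transcriptional repressor, was at 18.7, 28.9 and 11.6 RPKM in SIX2+ and 20.9, 47.5 and 19.2 in SIX2-, but at 15.4, 21.4 and 12.05 in GFP+ and 5.85, 10.8 and 5.55 in GFP-. Hey1 was thus lower in SIX2+ than in its SIX2- partner in 3 of 3 pairs and higher in GFP+ than in its GFP- partner in 3 of 3, at −1.57 ± 0.17 (adjusted p = 0.00572; 0.247 without the replicate block). Heyl behaved the same way in all 6 pairs (−1.30, adjusted p = 0.0156; 0.0551 without GFP pair 1). Hes1 had antibody differences of 0.13, −0.86 and −0.67 and GFP differences of 0.84, 1.03 and 0.81 (enrichment difference −1.36, adjusted p = 0.0215). The Hes1 call was lost without antibody pairs 2 or 3 or GFP pairs 1 or 2 (adjusted p = 0.0801, 0.0510, 0.0637 and 0.0672) and without the replicate block (0.271). Nrarp, a feedback inhibitor of Notch outside the rule for naming genes and chosen after its value was seen, was at −1.29 (adjusted p = 0.0304). The receptors Notch2 and Notch3, also outside the rule, lay at −0.01 each (adjusted p = 0.979 and 0.980).

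Among 11 targets of canonical Wnt signalling, 3 were called with a higher GFP difference and 0 with a higher antibody difference (7 and 0 at an unadjusted p under 0.05, list median −0.45). Of all genes 1.81% and 1.21% were called in these directions. Each of the 3 Wnt target calls was lost without antibody pair 2 and without GFP pairs 1 or 2, and none was made when the columns were rescaled to equal sums. The number called was 3 with replicates 1 and 2 alone and 5 with library weights. Sp5, a transcription factor induced by Wnt signals, had antibody differences of 0.58, −0.02 and −0.62 and GFP differences of 1.49, 1.15 and 1.74 (enrichment difference −1.48 ± 0.30, adjusted p = 0.0389). Leaving out any pair but antibody pair 1 moved the adjusted p of Sp5 to between 0.0569 and 0.148. Dkk1, a secreted Wnt inhibitor that is also in the induced list, was at 0.294, 0.215 and 0.454 RPKM in SIX2+ and 33.6, 40.6 and 37.8 in SIX2-, against 0.357, 0.367 and 0.194 in GFP+ and 19.2, 18.9 and 18.3 in GFP-. Dkk1 was near 0 in all positive fractions and higher in the SIX2- than in the GFP- libraries, with no overlap. Its enrichment difference was −0.94 ± 0.14 (adjusted p = 0.0156), and it was lost without antibody pair 2 (0.0668) or GFP pairs 1 or 2 (0.0599 and 0.0506). Lgr5, a receptor for R-spondins, was at −0.92 (adjusted p = 0.0357) with all values under 2.5 RPKM. Its call was lost without antibody pairs 1 or 2 (0.0981 and 0.161) or GFP pairs 1 or 2 (0.130 and 0.0833).

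Genes of later tubule segments and of the ureteric bud lay on the same side but few were called. Of 8 tested proximal tubule genes, 0 were called, with 0 and 4 at an unadjusted p under 0.05 (antibody and GFP difference higher, limma) and a median of −0.89. Of 8 tested genes of the loop of Henle and distal tubule, 0 were called (1 and 5 unadjusted, median −0.77). The lists have 18 members each, and the others were too low to be tested. Slc34a1, a phosphate carrier of the proximal tubule, was at 11.5, 6.51 and 2.48 RPKM in SIX2-, 1.75, 2.72 and 1.82 in GFP- and under 0.5 in all positive libraries (enrichment difference −1.23, adjusted p = 0.113). Wfdc2, a secreted protease inhibitor of distal epithelia, was at −1.51 (adjusted p = 0.0725). With replicates 1 and 2 alone, 4 proximal tubule and 4 loop and distal genes were called with a higher GFP difference and 1 loop and distal gene with a higher antibody difference, and library weights gave the same numbers. Slc34a1 (adjusted p = 0.00646) and Wfdc2 (0.00136) were called with replicates 1 and 2 alone.

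In the ureteric tip list 2 of 9 tested members were called, both with a higher GFP difference (0 and 5 at an unadjusted p under 0.05, median −0.69). Of all genes 1.81% were called in that direction. Replicates 1 and 2 alone gave 4 calls and library weights 6, all with a higher GFP difference. The summed level of this list was higher in the positive fraction of both sorts. It was 197 to 237 RPKM in SIX2+ and 117 to 174 in SIX2-, and 205 to 250 in GFP+ and 83.3 to 131 in GFP-. Whether the values of the list reflect bud cells was not tested. Sox9, a transcription factor of the bud tip that is also made in the early nephron, was at 3.49, 1.97 and 3.06 RPKM in SIX2+ and 5.45, 4.35 and 6.19 in SIX2-, against 5.62, 4.25 and 8.12 in GFP+ and 2.56, 2.52 and 3.87 in GFP-. SIX2- exceeded SIX2+ in all 3 pairs and GFP+ exceeded GFP- in all 3, and the enrichment difference of Sox9 was −1.52 ± 0.16 (adjusted p = 0.00539). Wnt11, a ligand of the bud tip, was lower in the positive fraction in all 6 pairs, with means of −2.88 in the antibody sort and −1.72 in the GFP sort (enrichment difference −1.16, adjusted p = 0.0369; lost without any pair but GFP pair 1, 0.0552 to 0.109). In the list of ureteric stalk and collecting duct, 1 of 12 tested members was called with a higher GFP difference and 0 with a higher antibody difference (0 and 6 at an unadjusted p under 0.05, median −0.62). A higher GFP difference was called for 5 with replicates 1 and 2 alone and for 7 with library weights. The called member was Epcam, an epithelial adhesion molecule, at 7.45, 9.05 and 9.25 RPKM in SIX2+, 23.5, 26.2 and 20.3 in SIX2-, with 5.62, 7.01 and 6.77 in GFP+ and with 4.87, 7.35 and 12.2 in GFP- (−1.12 ± 0.24, adjusted p = 0.0470). The SIX2- libraries stood above all others for Epcam. Its call was lost without any pair but GFP pair 3 (adjusted p = 0.0505 to 0.175). For 15 tested podocyte genes 0 were called (2 and 3 at an unadjusted p under 0.05), with a median of −0.08 that changed sign between settings (−0.36 to 0.21). Lmx1b, a podocyte transcription factor, had the lowest value of that list (−1.40, adjusted p = 0.102; 0.0144 with replicates 1 and 2 alone). Its group means were 4.11 RPKM in SIX2+, 0.662 in SIX2-, 11.4 in GFP+ and 0.639 in GFP-. Lmx1b was thus higher on the positive side of both sorts (1.55 and 2.94), whereas the podocyte list medians were −1.60 and −1.43. Without the pairs numbered 3, 3 podocyte genes were called with a higher GFP difference, and library weights gave 2 in each direction.

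**Figure D3:**
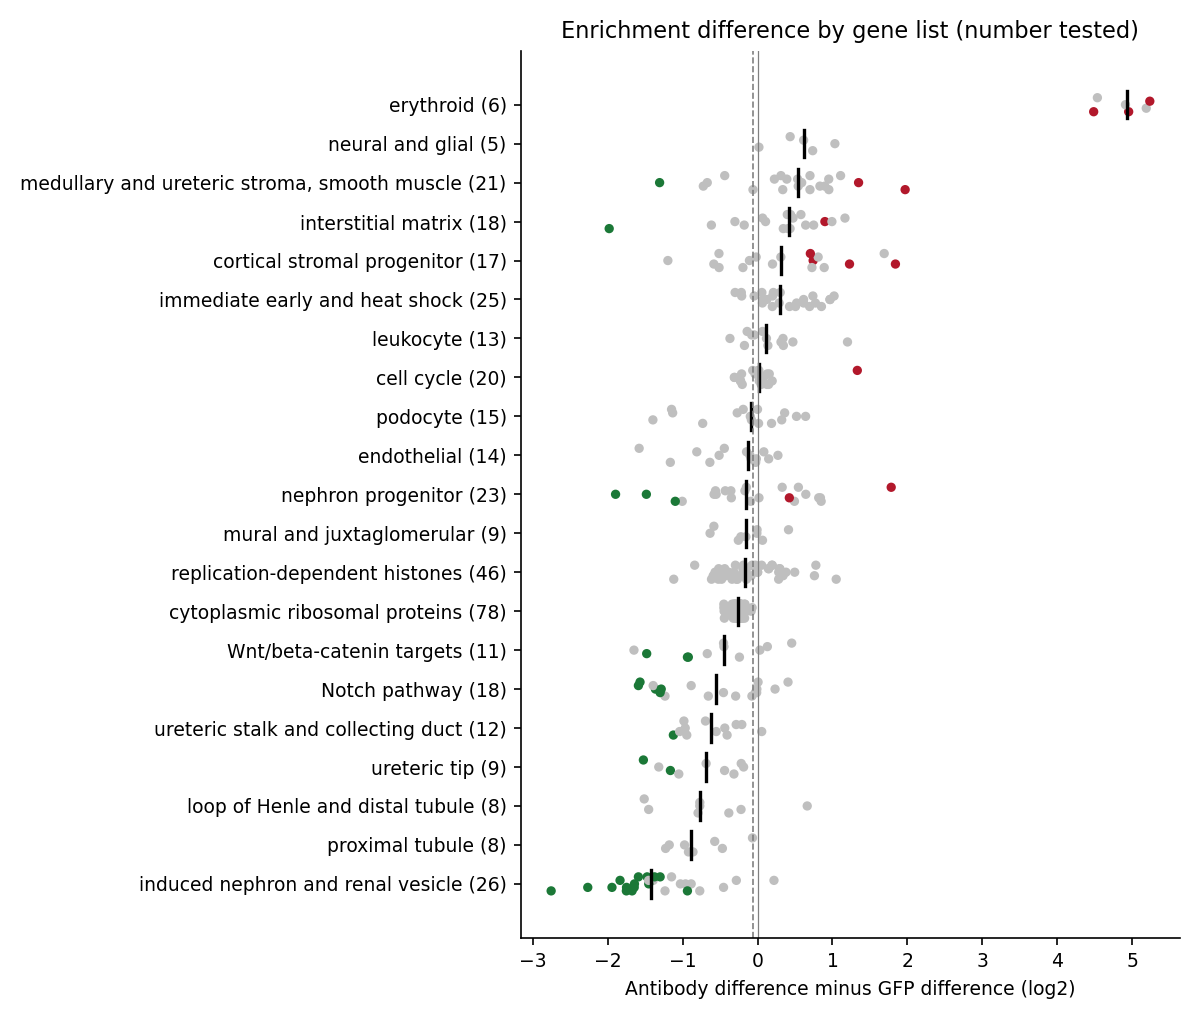
Enrichment difference (x axis, log2, antibody minus GFP) of every tested member of 21 gene lists (y axis, number tested in brackets), red where called with a higher antibody difference and green where called with a higher GFP difference. Black bars are list medians and the dashed line is the median of all genes (−0.06). Induced nephron genes lie to the left with a median of −1.42, stromal lists slightly to the right and the 6 erythroid genes far to the right.

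Nephron progenitor genes were called in both directions. Of 23 tested members, 2 were called with a higher antibody difference and 3 with a higher GFP difference (6 and 4 at an unadjusted p under 0.05), and the list median of −0.15 changed sign between settings (−0.21 to 0.08). The member medians were 2.44 for the antibody difference and 2.03 for the GFP difference. With replicates 1 and 2 alone 4 and 4 members were called, and with library weights 6 and 3. Traf1, a signalling adaptor, was at 21.3, 25.2 and 43.7 RPKM in SIX2+, 0.586, 0.526 and 2.85 in SIX2-, with 3.26, 7.26 and 5.61 in GFP+ and with 0.274, 0.435 and 0.853 in GFP-. Every SIX2+ library held more Traf1 than every GFP+ library, and its enrichment difference was 1.78 ± 0.24 (adjusted p = 0.00953). It was 0.145 without the replicate block and 0.0973 with a pseudocount of 0.1. Hoxa11, a homeobox gene outside the rule for naming genes and chosen after its value was seen, was the other gene with a higher antibody difference (0.42, adjusted p = 0.0499).

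The progenitor members with a higher GFP difference were still enriched in both sorts. Uncx, a homeobox gene, was at 198, 200 and 288 RPKM in SIX2+ and 25.4, 48.9 and 76.1 in SIX2-, against 155, 151 and 160 in GFP+ and 4.32, 8.76 and 11.6 in GFP-. The SIX2- libraries of Uncx were all above the GFP- libraries, and its enrichment difference was −1.90 ± 0.34 (adjusted p = 0.0276; lost without antibody pairs 2 or 3 or GFP pairs 1 or 2, 0.0568 to 0.121, and without the replicate block, 0.106). Pax2, a transcription factor of progenitors, induced nephron and bud alike, was at 115, 147 and 214 RPKM in SIX2+ and 19.8, 35.1 and 63.2 in SIX2-, against 89.0, 62.2 and 111 in GFP+ and 3.79, 5.75 and 10.7 in GFP-. The enrichment difference of Pax2 was −1.48 ± 0.28 (adjusted p = 0.0327), lost without antibody pairs 2 or 3 or GFP pair 1 (0.134, 0.0710 and 0.0528) and without the replicate block (0.358). Nell1, a secreted protein, was at 31.2 to 38 RPKM in SIX2+ and 61.7 to 68.3 in GFP+, and at 1.74 to 3.63 in both negative fractions (−1.10 ± 0.14, adjusted p = 0.00727). Cited1, a transcriptional co-activator of the least advanced progenitors, was at 226, 213 and 339 RPKM in SIX2+ and 42.6, 57.0 and 29.7 in GFP+, with 4.06, 4.41 and 22.9 in SIX2- and 0.511, 0.873 and 4.95 in GFP-. SIX2+ was far above GFP+ for Cited1, and SIX2- above GFP- within each replicate number, and the enrichment difference did not pass the test (0.82 ± 0.69, adjusted p = 0.559). It turned to −0.029 without GFP pair 3.

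The medians of 3 stromal lists lay on the other side, above 0. In the cortical stroma list 4 of 17 tested members were called with a higher antibody difference and 0 with a higher GFP difference (8 and 3 at an unadjusted p under 0.05), with a list median of 0.31. In the list of medullary and ureteric stroma and smooth muscle, 2 and 1 of 21 were called (7 and 3 unadjusted, median 0.54), and in the interstitial matrix list 1 and 1 of 18 (8 and 2 unadjusted, median 0.42). The medians of these 3 lists stayed above 0 in all 18 alternatives, the lowest being 0.20, 0.41 and 0.24. Members below 0 numbered 7, 5 and 4, where 59.5% of all genes lay below 0. Over all genes 1.21% were called with a higher antibody difference and 1.81% with a higher GFP difference. With replicates 1 and 2 alone the calls were 7 and 1, 4 and 2, and 4 and 1, and with library weights 7 and 2, 8 and 2, and 7 and 1. By summed level SIX2+ was below GFP+ in all 3 lists, without overlap, whereas for Meis1 and Mylk, below, SIX2+ was above GFP+. The cortical list was at 362 to 443 RPKM in SIX2+, 538 to 561 in GFP+, 980 to 1340 in SIX2- and 1344 to 1620 in GFP-. The matrix list was at 39.4 to 45.4, 66.0 to 80.4, 1687 to 2399 and 2892 to 4309 RPKM in the same order. In bulk RNA of a sorted fraction, fewer cells of a type and less RNA per cell cannot be told apart.

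Meis1, at chromosome 11:18879817-19018985 on the minus strand, was at 14.7, 17.6 and 16.8 RPKM in SIX2+ and 55.0, 44.8 and 55.0 in SIX2-. It was at 5.6, 5.3 and 5.11 RPKM in GFP+ and 68.0, 68.0 and 67.1 in GFP-. Meis1 was lower in the positive fraction of all 6 pairs, and the gap was wider at both ends in the GFP sort, with GFP+ below SIX2+ and GFP- above SIX2- without overlap. The antibody differences were −1.84, −1.30 and −1.66 and the GFP differences −3.39, −3.45 and −3.48, an enrichment difference of 1.84 ± 0.14 (adjusted p = 0.00260) that was called in all 18 alternatives. Mylk, at chromosome 16:34745210-35002420 on the plus strand, was at 2.71, 5.40 and 3.88 RPKM in SIX2+ and 22.8, 27.5 and 25.3 in SIX2-. It was at 0.990, 1.19 and 1.08 RPKM in GFP+ and 45.3, 44.3 and 39.0 in GFP-. The order of the 4 groups was that of Meis1, again without overlap between GFP+ and SIX2+ or between SIX2- and GFP-. The enrichment difference of Mylk was 1.97 ± 0.15 (adjusted p = 0.00260), called in all 18 alternatives.

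Other stromal genes repeated parts of this pattern. Sfrp1, a secreted Wnt modulator, was at 4.2 to 5.4 RPKM in SIX2+, 37.5 to 59.7 in SIX2-, 3.04 to 3.11 in GFP+ and 75.8 to 86.8 in GFP- (1.23 ± 0.20, adjusted p = 0.0190; lost without GFP pairs 1 or 2, 0.0665 and 0.0527). Meis2, a relative of Meis1, was at 66.3, 65.5 and 64.3 RPKM in SIX2+, 47.2, 41.2 and 52.4 in SIX2-, with 56.2, 44.5 and 50.04 in GFP+ and with 63.4, 57.4 and 60.5 in GFP-. Meis2 was thus higher in SIX2+ than in SIX2- in all 3 pairs and lower in GFP+ than in GFP- in all 3, by less than in the other genes (0.74 ± 0.12, adjusted p = 0.0173; lost without antibody pairs 1 or 2 or GFP pairs 1 or 2, 0.0528 to 0.0757). Myocd, the co-activator of smooth muscle genes, was at 0.310, 0.451 and 0.406 RPKM in SIX2- and 2.68, 2.38 and 2.76 in GFP-, and at 0.0546 or less in all positive libraries. Its enrichment difference of 1.35 ± 0.16 (adjusted p = 0.00695) held in all 17 alternatives in which it was tested. Myocd reached 1 RPKM only in the GFP- libraries and entered the test through them. The alternative that did not test it asked for a value of at least 5 in 3 libraries. Col6a3, a collagen chain, was at 20.9 to 30.0 RPKM in SIX2- and 49.0 to 62.6 in GFP-, with under 0.4 in all positive libraries (0.90 ± 0.15, adjusted p = 0.0197; lost without antibody pairs 1 or 2 or GFP pairs 1 or 2, 0.0549 to 0.0881). The size of the Col6a3 difference depended on the pseudocount, since its positive libraries were near 0. With a pseudocount of 0.1 it was 0.25 (adjusted p = 0.532). Foxd1 itself was lower in the positive fraction in all 6 pairs and its enrichment difference did not pass the test (−0.51 ± 0.30, adjusted p = 0.389).

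Members of the stromal lists also went the other way. Mgp, matrix Gla protein, was at 10.3, 9.41 and 4.08 RPKM in SIX2+ and 104, 195 and 114 in SIX2-, against 8.08, 14.55 and 9.64 in GFP+ and 36.3, 62.3 and 40.1 in GFP-. All SIX2- libraries of Mgp exceeded all GFP- libraries, and its enrichment difference was −1.98 ± 0.28 (adjusted p = 0.0130; 0.0647 without antibody pair 2). Bmp4, a ligand of stroma and early nephron, was lower in SIX2+ than in SIX2- in all 3 pairs, while GFP+ and GFP- overlapped (−1.31 ± 0.20, adjusted p = 0.0163; 0.0801 without antibody pair 2 and 0.0503 without GFP pair 2).

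Blood and other cell types were compared through their own markers. Erythroid genes had the highest list median, 4.93, and 3 of 6 tested members of 12 were called with a higher antibody difference and 0 with a higher GFP difference (6 and 0 unadjusted). Replicates 1 and 2 alone gave 5 calls. With no filter on low values all 12 members were tested, with a median of 3.31 and 0 called. The filter thus bears on the median and the counts of this list. Alas2, below, reached 1 RPKM only in the GFP- libraries and entered the test through them. Their summed level was 0.969 to 2.91 RPKM in SIX2+, 6.44 to 23.9 in SIX2-, 17.9 to 79.9 in GFP+ and 1251 to 13031 in GFP-. The GFP- libraries stood above all others, SIX2+ below all others, and the SIX2- and GFP+ ranges overlapped. Hbb-bt, a beta globin, was at 0.174, 0.0947 and 0.0183 RPKM in SIX2+, 2.39, 1.63 and 0.411 in SIX2-, with 6.51, 4.95 and 1.63 in GFP+ and with 107, 596 and 938 in GFP-. Its enrichment difference was 5.24 ± 0.96 (adjusted p = 0.0281). Hbb-b2 was listed with identical values, so the globin copies cannot be told apart. Hba-a1, an alpha globin with a near copy, was at 4.95 (adjusted p = 0.0442), and Alas2, which makes haem in red cells, at 4.49 ± 0.93 (adjusted p = 0.0431), with 5.68, 32.6 and 142 RPKM in GFP- and at most 0.475 in every other library. Without antibody pairs 1, 2 or 3 or GFP pair 2 no erythroid gene was called (0.0565 to 0.159 for the named 3). Levels under 1 RPKM are compressed on the log2(RPKM + 1) scale.

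Markers of the remaining cell types gave no calls over all 6 pairs. With replicates 1 and 2 alone, 3 endothelial genes were called with a higher GFP difference and 1 neural gene with a higher antibody difference, and 0 leukocyte or mural genes. With library weights, 2 leukocyte genes, 1 mural and 1 neural gene were called with a higher antibody difference and 1 mural gene with a higher GFP difference. For 14 tested endothelial genes the median was −0.12 (0 and 3 at an unadjusted p under 0.05), for 13 leukocyte genes 0.12 (2 and 0), for 9 mural and juxtaglomerular genes −0.16 (1 and 3) and for 5 neural and glial genes 0.62 (1 and 0). The sign of each of these medians changed between settings. The summed leukocyte level was 106 to 147 RPKM in SIX2- and 101 to 151 in GFP-, and the summed endothelial level 80.5 to 239 in SIX2- and 68.4 to 124 in GFP-, so the negative fractions overlapped. Examples with the largest value of a list were Plvap, an endothelial vesicle protein (−1.58, adjusted p = 0.199; 0.00928 with replicates 1 and 2 alone and 0.0281 without antibody pair 3), Lyz2, lysozyme of macrophages (1.2, adjusted p = 0.208; 0.0319 with library weights), Kcnj8, a pericyte potassium channel (−0.63, adjusted p = 0.242), and Stmn2, a neuronal microtubule regulator (1.03, adjusted p = 0.453). The part of these cells in any other result was not tested.

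The lists of cell state and RNA quality held 1 called gene over all 6 pairs. For 25 immediate early and heat shock genes the median was 0.30 with 0 called (6 and 0 at an unadjusted p under 0.05), and 8 were called with a higher antibody difference when libraries were weighted and 1 with replicates 1 and 2 alone. Hspa1b, an inducible chaperone, ran from 14.0 to 194 RPKM in SIX2+ and from 5.32 to 91.2 in GFP+ (1.02, adjusted p = 0.322; 0.0418 with replicates 1 and 2 alone). For 20 cell cycle genes the median was 0.02, with 1 called, Ccnd2, a cyclin that drives entry into the cycle (1.33 ± 0.28, adjusted p = 0.0427). Ccnd2 was at 48.2 to 73.8 RPKM in SIX2- and 99.4 to 109 in GFP-, and its call was lost without antibody pairs 1 or 2 or GFP pairs 2 or 3 (0.0580 to 0.157). All 78 ribosomal protein genes tested lay below 0, between −0.45 (Rpl37, adjusted p = 0.308) and −0.07, with a median of −0.26 and 0 called (0 and 1 unadjusted), where 59.5% of all genes lay below 0. With replicates 1 and 2 alone the median was −0.54 with 0 called. With library weights 7 of the 78 were called with a higher GFP difference, where 1067 of all 12615 genes were. For 46 replication-dependent histone genes the median was −0.17 with 0 called (2 and 4 unadjusted). Without the pairs numbered 3, 6 were called with a higher GFP difference, and with library weights 7, with 1 in the other direction. Hist1h2bk had the largest difference of these (−1.12, adjusted p = 0.0537; 0.0186 with replicates 1 and 2 alone and 0.0139 with library weights).

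**Figure D4:**
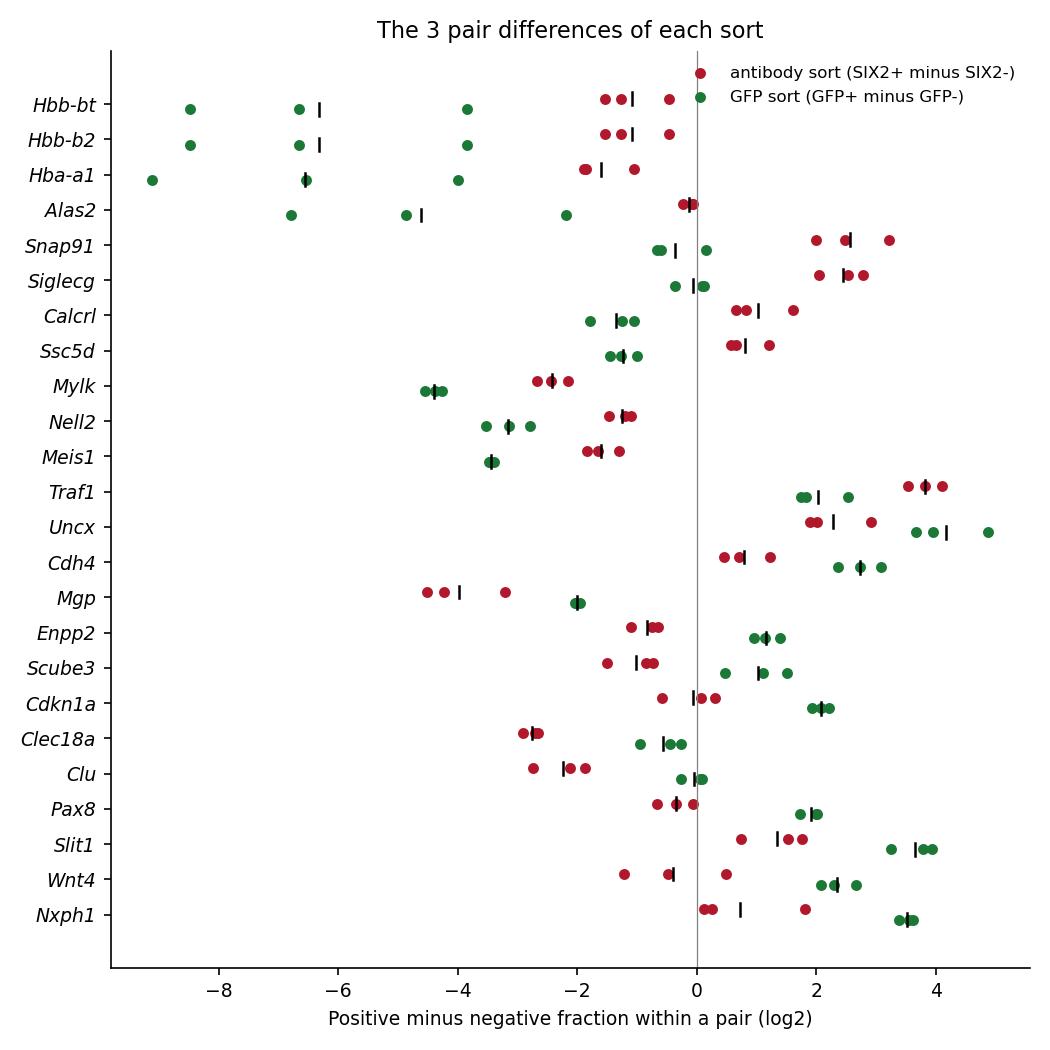
The 3 antibody (red) and 3 GFP (green) pair differences, positive minus negative fraction on the log2(RPKM + 1) scale (x axis), of the 12 called genes with the largest enrichment difference in each direction (y axis), with black ticks at the means. The red and green points of a gene do not overlap because the genes were chosen by that condition. The GFP points of the globins and Alas2 spread over 4 or more log2 units.

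Among the genes with the largest differences outside the lists, several differed mainly between the positive fractions. Snap91, a clathrin assembly protein best known from neurons, was at 24.2, 36.8 and 19.4 RPKM in SIX2+, 3.5, 3.08 and 4.10 in SIX2-, with 2.23, 3.35 and 2.21 in GFP+ and with 4.12, 2.90 and 3.86 in GFP-. SIX2+ stood above all 9 other libraries, and the enrichment difference of Snap91 was 2.93 ± 0.32 (adjusted p = 0.00610). Siglecg, a sialic acid binding lectin known from B cells, was at 5.33, 7.55 and 6.93 RPKM in SIX2+ and under 1 in all other libraries (2.51 ± 0.24, adjusted p = 0.00510). Nxph1, a neurexophilin, was the reverse case, at 13.4, 12.4 and 10.5 RPKM in GFP+, 2.75, 0.257 and 0.0906 in SIX2+ and at most 0.171 in the negative fractions (−2.79 ± 0.40, adjusted p = 0.0134; lost without antibody pair 2 or GFP pair 1, 0.0629 and 0.0503). Slit1, a guidance ligand, was at 5.73 to 6.56 RPKM in SIX2+ and 15.2 to 31.7 in GFP+ (−2.31 ± 0.28, adjusted p = 0.00713). With 0.989 to 3.27 RPKM in SIX2- and 0.609 to 1.38 in GFP-, Slit1 was higher on the positive side of both sorts (1.34 and 3.66). Cdkn1a, the cell cycle inhibitor p21, was at 6.84, 3.37 and 4.18 RPKM in SIX2+, 6.48, 5.52 and 3.18 in SIX2-, with 14.0, 18.9 and 14.9 in GFP+ and with 2.94, 3.28 and 2.75 in GFP- (−2.14 ± 0.22, adjusted p = 0.00539). GFP+ was above every other library for Cdkn1a.

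Others differed mainly in a negative fraction. Clu, the secreted chaperone clusterin, was at 73.0, 133 and 58.4 RPKM in SIX2- and between 15.2 and 31.3 in all other libraries (−2.20 ± 0.21, adjusted p = 0.00510). Clec18a, a C-type lectin, was at 32.9, 67.3 and 29.4 RPKM in SIX2- and 6.45, 14.1 and 10.9 in GFP-, with 3.07 to 10.05 in the positive fractions (−2.20 ± 0.18, adjusted p = 0.00260; 0.0904 without the replicate block). Nell2, a relative of Nell1, was at 3.69, 4.59 and 5.62 RPKM in SIX2+ and 0.920, 0.971 and 0.656 in GFP+, with 9.72 to 18.2 in both negative fractions, and differed instead at the positive end (1.90 ± 0.20, adjusted p = 0.00539).

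Genes with opposite signs in the sorts were named by the same rule. Calcrl, a receptor for calcitonin-related peptides, was at 14.7, 15.8 and 6.53 RPKM in SIX2+, 8.99, 4.47 and 3.25 in SIX2-, with 4.39, 2.62 and 2.27 in GFP+ and with 11.8, 11.4 and 5.74 in GFP- (2.39 ± 0.28, adjusted p = 0.00622; 0.0562 without the replicate block). Ssc5d, a scavenger receptor family protein, was at 0.82 in the antibody sort and −1.24 in the GFP sort (2.05 ± 0.20, adjusted p = 0.00510). Syt9, a synaptotagmin (1.40, adjusted p = 0.00622), and Epb41l4a, a membrane skeleton protein (1.24, adjusted p = 0.0115), had the same signs. In the other direction, Scube3, a secreted signalling protein, was at −1.02 and 1.03 (−2.06 ± 0.28, adjusted p = 0.0113), with 22.3 to 33.8 RPKM in GFP+ and 2.45 to 15.7 in all other libraries. Enpp2, the enzyme autotaxin, was at −0.83 and 1.17 (−2.001 ± 0.16, adjusted p = 0.00260), and Lrp4, a low density lipoprotein receptor family member, at −0.53 and 1.09 (−1.62 ± 0.24, adjusted p = 0.0153; lost without antibody pair 2 or GFP pair 1, 0.0597 and 0.0542). In 18 of the 153 and 34 of the 228 called genes all 3 antibody pairs lay on 1 side of 0 and all 3 GFP pairs on the other, and so did 1.6% of all genes.

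The enrichment difference is the gap between the positive fractions (SIX2+ minus GFP+) minus the gap between the negative fractions (SIX2- minus GFP-). Among the 228 genes with a higher GFP difference the negative gap was the larger in size in 140 (61.4%), and the median gaps were −0.34 for the positive and 0.70 for the negative fractions. Among the 153 genes with a higher antibody difference it was the larger in 71 (46.4%), with medians of 0.48 and −0.43. Over all genes tested the share was 65.7% and the medians 0.05 and 0.10. Wnt4, Pax8, Clec18a and Uncx had the larger gap in the negative fractions, and Meis1, Mylk, Snap91 and Nxph1 in the positive ones. The summed level of the induced list was 226 to 285 RPKM in SIX2+ and 339 to 368 in GFP+, but 450 to 705 in SIX2- and 214 to 264 in GFP-. That of the medullary stroma list was 78.6 to 99.3 RPKM in SIX2+ and 116 to 127 in GFP+, and 429 to 609 in SIX2- and 564 to 827 in GFP-, with the ranges of the negative fractions overlapping. These gaps compare libraries of different sorts, and no test was made of them.

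**Figure D5:**
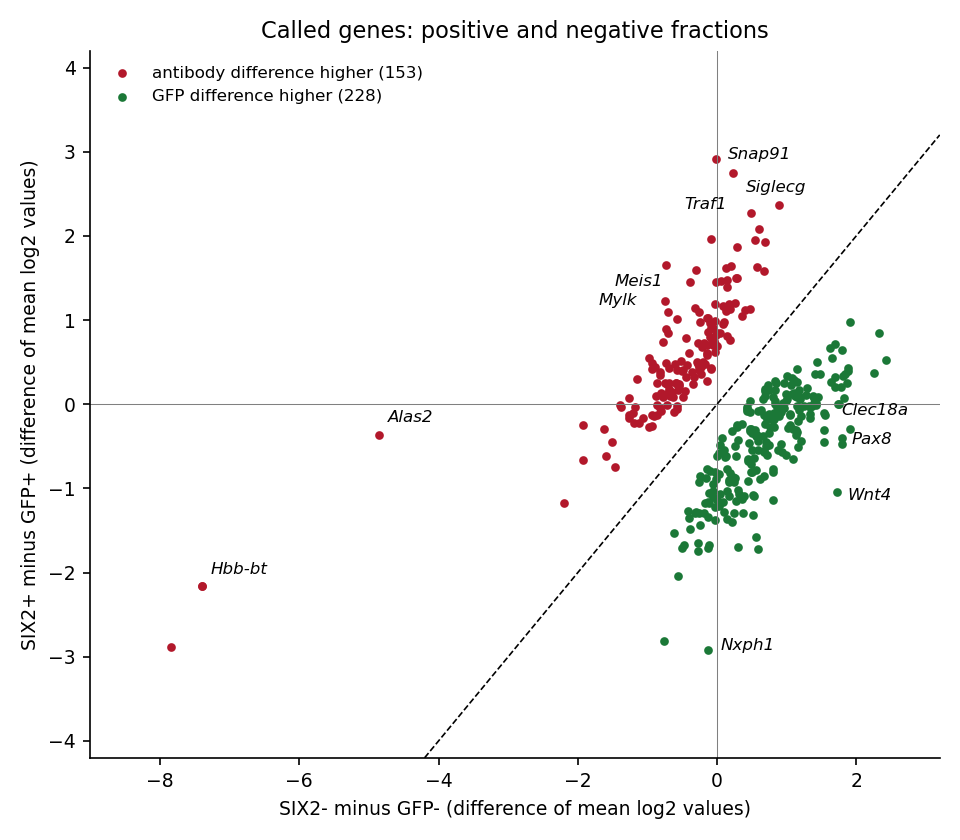
Difference between the positive fractions (SIX2+ minus GFP+, y axis) against that between the negative fractions (SIX2- minus GFP-, x axis), each a difference of mean log2(RPKM + 1), for the 381 called genes, with the dashed line marking equal gaps. Genes with a higher GFP difference (green) spread to the right and below 0, with medians of 0.70 and −0.34, and the globins and Alas2 lie far to the left.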

How the data were processed

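Poly(A) RNA libraries were made with a stranded kit, per the labels' protocols. TopHat2, Partek and the mouse build mm10 are named without versions or roles, per the submitters' processing notes. No source used here gives the annotation or the use of strand in counting, so overlapping antisense genes cannot be told apart. The authors deposited a table with 15 E16.5 libraries (20164 lines, 27 names turned into dates). Its title says TPM, but the deposited values behave as RPKM: column sums ran from 339454 to 429529 (coefficient of variation 8.00%), and sums weighted by transcript length from 779398 to 830674 (1.72%). Depth was estimated from the smallest values, so it is approximate, and no count model was used. The E14.5 table was not used.

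Values were taken as log2(RPKM + 1), which understates changes of low genes. The 12615 genes that reached 1 RPKM in 3 or more of the 12 libraries entered a single fit of 6 pair differences in limma 3.58.1 (R 4.3.3; moderated variances with an intensity trend, 4 residual degrees of freedom, two-sided), with Benjamini-Hochberg adjustment over all genes. Every adjusted p is from this test. Same-numbered libraries were taken as pairs by the rule that defines the comparison. Across genes they deviated together from their group means (r = 0.65, 0.28 and 0.69 in the antibody sort and 0.48, 0.46 and 0.40 in the GFP sort). Antibody pair 2 was weakly marked, since SIX2+ number 2 had r = 0.24 with SIX2- number 1. Scripts were tested on simulated data. Positions are those of GENCODE M21 on GRCm38 (mm10), which held 96.0% of the names.

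The comparison, the 21 gene lists (13 genes stand in more than 1) and the naming rule were chosen with earlier results of these data known. Named are Six2, Cited1, Foxd1, Wnt4, Pax8, Meis1 and Mylk. Also named are the 12 called genes per direction with the largest difference, no overlap of pairs and a mean of at least 5 RPKM in some group. Up to 4 called members per list follow (or the 1 largest where none was called), with up to 6 called genes per direction with opposite signs of at least 0.5. Predicted genes and date names were left out, and some genes that meet the rule are not reported here. In total 18 alternative settings were run. Versions of other tools were python 3.11.15, numpy 2.4.6, pandas 2.3.3, matplotlib 3.10.9 and data.table (version 1.17.8).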

Additional observations from a re-analysis of the deposited data

Results flagged for a closer look

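The contrast of positive and negative fraction differed between the sorts, by the test of the difference itself, for 153 genes with a higher antibody difference and 228 with a higher GFP difference. In 13 of the called genes named above the sign also differed, with all 3 antibody pairs on one side of 0 and all 3 GFP pairs on the other. The naming rule picked genes for opposite signs, so this number is partly set by the rule. Over all called genes such a split was seen in 18 of 153 and 34 of 228, and over all genes tested in 1.6%. The calls of Bmp2, Lrp4, Meis2 and Heyl were lost in some fits that left out 1 pair. Higher in the antibody sort were Calcrl (2.39), Ssc5d (2.05), Syt9 (1.40), Epb41l4a (1.24) and Meis2 (0.74). Higher in the GFP sort were Pax8 (−2.27), Scube3 (−2.06), Enpp2 (−2.001), Bmp2 (−1.68), Lrp4 (−1.62), Hey1 (−1.57), Sox9 (−1.52) and Heyl (−1.30). With groups of 3, single libraries were not tested as outliers.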

How the results depend on the processing

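Of the 48 called genes named above, Meis1, Mylk and Pax8 stayed called in all 18 alternatives and Myocd in the 17 that tested it, 25 stayed called whichever pair was left out, and none of the 381 called genes changed sign under any alternative. Myocd passed the filter on low values only through its GFP- libraries. Calls with the antibody and the GFP difference higher numbered 65 and 76 without the replicate block, 6 and 12 with the unsorted NZC also in that unpaired fit, 16 and 12 with no filter on low values (19256 genes tested), 83 and 118 with columns rescaled to equal sums, 241 and 227 with quantile normalisation, 699 and 1067 with library weights, and 300 and 548 with replicates 1 and 2 alone, against 153 and 228. Leaving out 1 pair gave 42 to 192 and 51 to 269. With no filter on low values 41 of the 48 called named genes lost the call, and 39 did with the unsorted NZC in the unpaired fit. These losses are mostly not given gene by gene above. Without the block 133 of the 381 called genes were still called, and of the named genes 17 lost the call (among them Alas2, Calcrl, Traf1, Clec18a, Mgp, Uncx, Pax2, Cdh6, Wnt11, Epcam, Bmp4, Col6a3, Ccnd2, Jag1, Hey1 and Hes1). Cited1, which was not called, ran from −0.029 (without GFP pair 3) to 1.34 (without antibody pair 3) when 1 pair was left out. The cause was not tested. Fits without 1 pair have fewer samples, and the fit with no filter tests more genes. With 3 pairs per sort, no exact permutation test of a single gene can give a p under 0.10.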
